A study of Mus musculus with 22 samples.

Results

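The effect of time of day on gene expression in muscle stem cells at day 1 after injury was compared with the effect in uninjured muscle. The quantity described is a difference of log2 changes: ZT16 over ZT4 at day 1, minus ZT16 over ZT4 in uninjured muscle. It was computed from the deposited expected counts summed per gene. A positive difference means that a gene's ZT16 level stood higher, relative to ZT4, at day 1 than it did in uninjured muscle. The comparison takes 14 of the 22 libraries of the series, chosen by their labels, and the other 8 libraries entered only the estimate of the spread.

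The cells were ZsGreen-positive muscle stem cells from the hindlimb of Pax7-zsgreen mice, in which cells that express the stem cell factor Pax7 carry a green fluorescent protein. The 4 groups were muscle injured with cardiotoxin at ZT16 and collected at day 1 (1dpi_ASC_ZT16, 4 libraries), the same at ZT4 (1dpi_ASC_ZT4, 4 libraries), uninjured muscle at ZT16 (QSC_ZT16, 3 libraries) and uninjured muscle at ZT4 (QSC_ZT4, 3 libraries). Cardiotoxin is a snake toxin that destroys myofibers. ZT is zeitgeber time, in hours after lights on, which puts ZT4 in the lit part of the day and ZT16 in the dark part. Every group had the same genotype, cold perfusion of the animal with saline, mild paraformaldehyde and glycine before the cells were taken, an RNA kit made for fixed tissue, and SMART-seq v4 libraries. In the labels the ZT belongs to the injury, which uninjured muscle did not have. The ZT may therefore not mean the same in injured and uninjured muscle, and time effects below are differences by ZT label. The labels do not state the clock hour at which cells were taken, nor age and sex. They also do not say whether libraries came from separate mice, so p-values measure only the spread between these samples, which may be technical.

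In mouse cells the clock is a loop in which BMAL1 (gene Arntl) with CLOCK or NPAS2 drives the Per, Cry, Rev-erb and Dec genes through E-boxes, and the proteins of those genes repress the activators. Cholesterol synthesis is governed by SREBP2 (gene Srebf2), a membrane-bound factor that is released when sterols are scarce and drives the genes of the mevalonate and sterol pathway. Muscle stem cells rest in uninjured muscle and leave quiescence within the first days after injury.

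Library totals in the 4 groups ran between 5965957 and 8108753 expected counts. Levels below are CPM (a gene's counts scaled to a common library size) after TMM normalisation, and changes are log2 values ± SE from 1 edgeR quasi-likelihood fit. The stem cell marker Pax7 was found in every library of the 4 groups and was lower at day 1. It lay at 42.2 to 78.4 CPM in day 1 ZT16 libraries and 49.8 to 59.6 CPM in day 1 ZT4 libraries. In uninjured muscle it lay at 290 to 348 CPM in ZT16 libraries and 296 to 349 CPM in ZT4 libraries. Myod1, the factor of activated myoblasts, lay at 1213 to 1420 CPM in the day 1 libraries, against 197 to 303 CPM in the uninjured ones. Markers of macrophages and monocytes, 19 genes, summed to 1647 to 3140 CPM in day 1 ZT16 libraries, 2990 to 5112 CPM in day 1 ZT4 libraries, 39.0 to 123 CPM in uninjured ZT16 libraries and 18.7 to 47.0 CPM in uninjured ZT4 libraries. In bulk RNA, fewer cells of a type and less RNA per cell cannot be told apart.

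Some libraries stood apart from others of their group, and in uninjured ZT16 these, replicates 1 and 3, were the majority. Uninjured ZT16 replicates 1 and 3 carried 92190 and 79070 summed CPM of 26 immediate early and stress genes, whereas replicate 2 of that group carried 5249 CPM and the uninjured ZT4 libraries 2385 to 5884 CPM. At day 1, ZT16 replicate 4 carried 4682 CPM, below the 16280 to 20870 CPM of the other 3 ZT16 libraries and the 15580 to 19680 CPM of the ZT4 libraries. Results are therefore also given without uninjured ZT16 replicates 1 and 3. That leaves 1 library in the group, whose spread is then assumed to be like that of the other groups. Among uninjured ZT4 libraries, replicate 3 correlated least with replicates 1 and 2 in log2 CPM (0.9505 and 0.9537). The correlation between uninjured ZT4 replicates 1 and 2 was 0.9741.

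Far more genes differed between the times in uninjured muscle than at day 1, and the difference itself passed the test for 1125 of 15084 genes (edgeR quasi-likelihood test, Benjamini-Hochberg adjusted p under 0.05), which is 7.46% of those tested. Of these, 593 differences were positive (3.93% of the tested genes) and 532 negative (3.53%), and 551 were at least 2-fold. In uninjured muscle 1287 genes were higher at ZT16 (8.53%) and 1376 lower (9.12%). At day 1 edgeR called 0 genes (0%), with a smallest adjusted p of 0.187, and 920 genes (6.1%) had an unadjusted p under 0.05. DESeq2 called 27 genes at day 1, limma voom 46 with sample weights and 29 with weights per group, and edgeR 270 without a filter on low counts, 1 with effective length offsets and 10 without day 1 ZT16 replicate 4. The uninjured counts moved with the libraries that stood apart: 1768 effects were called without uninjured ZT16 replicate 1 and 467 without replicates 1 and 3. The median difference over all tested genes was 0.02.

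Genes were sorted by rule, with the day 1 effect read at an unadjusted p of 0.05 because none passed the adjusted test. A time effect was lost, by this rule, for 1010 genes: the difference and the uninjured effect were called, and the day 1 effect was smaller and had a p of 0.05 or more. Their median absolute log2 change was 0.09 at day 1 and 0.93 in uninjured muscle, 469 were higher and 541 lower at ZT16 in uninjured muscle, and 383 kept the uninjured sign at day 1. A further 12 genes had a reduced effect, of the same sign and with an unadjusted p under 0.05 but smaller at day 1. For 51 the effect was reversed: the uninjured effect was called, and the day 1 effect had the opposite sign and an unadjusted p under 0.05. For 24 other genes the effect was new: the difference was called and the day 1 change was larger than the uninjured one. The new class set no limit on the day 1 p, and 0 of its genes had the same sign in both states. Another 28 fell in no class. An effect was kept for 105 genes, whose uninjured effect was called, whose difference was not, and whose day 1 effect had the same sign and an unadjusted p under 0.05. The difference and the uninjured effect share the uninjured libraries, so the large uninjured values of the lost class come from the rule, and its limit on the day 1 p also holds the day 1 values down. A missed threshold does not show that an effect is absent or equal.

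Without uninjured ZT16 replicates 1 and 3, 134 differences were called, of which 112 were also called with them (70 positive, 42 negative). Of the 1125 called differences, 1117 had the same sign without these libraries. Leaving out replicate 1 alone gave 648 calls and replicate 3 alone 728, whereas leaving out replicate 2 gave 1596. The lost class held 112 genes without both, 573 without replicate 1 and 640 without replicate 3. A fit of the 14 libraries alone, with no day 3 libraries to estimate the spread, called 514. There were 70 genes called in every fit run other than that with the stricter filter and that with 12 libraries alone, 46 positive and 24 negative, of which 64 were in the lost and 5 in the reversed class.

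**Figure D1:**
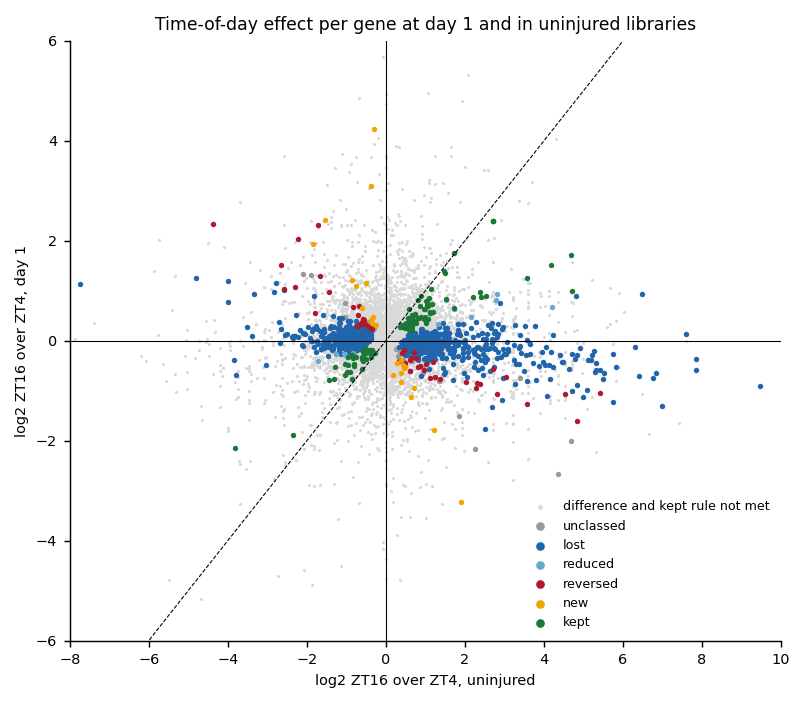
Each point is a gene, with its log2 change at ZT16 over ZT4 in uninjured libraries on the horizontal axis and at day 1 on the vertical axis, coloured by class; the dashed line marks equal effects, and 7 of 15084 genes lie outside the axes. The 1010 lost genes spread along the horizontal axis and stay near 0 on the vertical axis.

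Sterol genes were lower at ZT16 in uninjured muscle and had no called time effect at day 1. Of 24 tested genes of sterol synthesis and uptake, 18 had a called positive difference and 0 a negative one, and the same 18 were lower at ZT16 in uninjured muscle. Over the 24 genes the median log2 change was 0.13 at day 1 and −1.33 in uninjured muscle. The list's median difference was 1.52, against 0.02 over all tested genes. Without uninjured ZT16 replicates 1 and 3, 12 of the 18 were still called and the list's median was 1.68. Summed over the list, the level was 2155 to 3498 CPM in day 1 ZT16 libraries, 2174 to 2984 CPM in day 1 ZT4 libraries, 728 to 772 CPM in uninjured ZT16 libraries and 1464 to 2373 CPM in uninjured ZT4 libraries. The uninjured ZT16 libraries, replicate 2 included, lay below every other library, and the other 3 groups overlapped.

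Fdps makes farnesyl pyrophosphate, a branch point between sterols and prenyl groups (chromosome 3, 89093588 to 89101959, GRCm38). Its levels were 343, 329, 227 and 275 CPM in day 1 ZT16 libraries, 310, 280, 253 and 232 CPM in day 1 ZT4 libraries, 28.8, 22.9 and 26.8 CPM in uninjured ZT16 libraries, and 190, 80.2 and 172 CPM in uninjured ZT4 libraries. The uninjured ZT16 libraries lay below the rest without overlap, and the 2 day 1 groups overlapped. The log2 change at ZT16 over ZT4 was 0.13 ± 0.18 at day 1 and −2.49 ± 0.23 in uninjured muscle, and the difference was 2.62 ± 0.29 (edgeR, adjusted p = 4.72e-05). Sqle, squalene epoxidase, differed by 2.65 ± 0.38, Msmo1, a methylsterol oxidase, by 2.89 ± 0.39, and Lss, lanosterol synthase, by 1.98 ± 0.28. These 4 genes were also called without uninjured ZT16 replicates 1 and 3. When the day 3 libraries were left out as well, Sqle and Lss were called and Fdps and Msmo1 were not (edgeR, adjusted p = 0.0636 and 0.0995).

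Srebf2 itself followed (chromosome 15, 82147181 to 82205379). It had 313, 313, 240 and 267 CPM in day 1 ZT16 libraries, 339, 311, 253 and 282 CPM in day 1 ZT4 libraries, 121, 114 and 143 CPM in uninjured ZT16 libraries, and 293, 284 and 319 CPM in uninjured ZT4 libraries. Day 1 levels at both times overlapped with uninjured ZT4, and only uninjured ZT16 was apart. The time effect was −0.06 ± 0.10 at day 1 and −1.24 ± 0.12 in uninjured muscle (difference 1.18 ± 0.16, edgeR, adjusted p = 0.00014). The other 6 members of the list had no called difference.

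**Figure D2:**
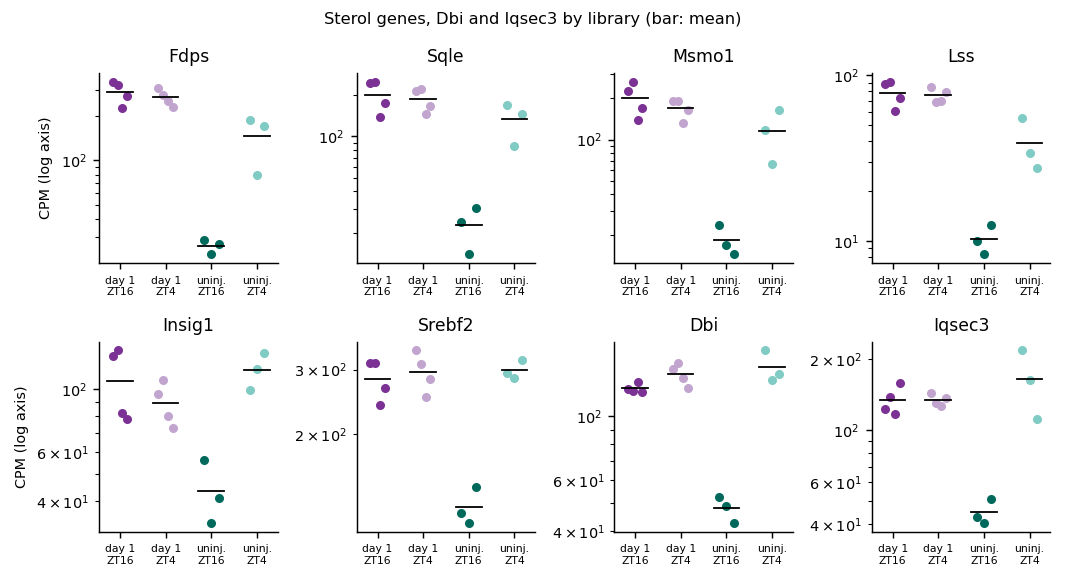
Points are libraries, bars are group means, and the vertical axes are CPM on a log scale, for 6 sterol genes, Dbi and Iqsec3, with day 1 groups left of uninjured groups. In each panel the 3 uninjured ZT16 libraries lie below the 3 uninjured ZT4 libraries, and the 2 day 1 groups overlap.

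The core clock lost its time effect in part. Of 14 tested clock repressors and E-box-driven outputs, 9 had a called negative difference and 0 a positive one, and 10 had been higher at ZT16 in uninjured muscle and 1 lower. The list's median time effect was 0.04 at day 1 and 1.23 in uninjured muscle, with 8 of 14 values positive at day 1. Of 9 clock activators and genes driven through ROR elements, Arntl had a called positive difference, Nfil3 a negative one, and 7 were not called. The activator list's median difference was 0.44, or 0.48 with a gene without counts in 1 group set at a floor of 3 counts. None of the 9 repressor calls remained without uninjured ZT16 replicates 1 and 3, although the list's median difference was then −1.18, against −1.30 with them.

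Arntl, whose product BMAL1 is the central activator (chromosome 7, 113207465 to 113314126), had 11.4, 10.2, 7.36 and 7.89 CPM in day 1 ZT16 libraries, 8.73, 6, 8.71 and 9.79 CPM in day 1 ZT4 libraries, 6.59, 5.28 and 13.8 CPM in uninjured ZT16 libraries, and 49.6, 24.6 and 32.0 CPM in uninjured ZT4 libraries. Day 1 levels at both times overlapped with the uninjured ZT16 level, and the uninjured ZT4 libraries were apart and higher. Its difference was 2.19 ± 0.45 (edgeR, adjusted p = 0.00515), and 2.90 without uninjured ZT16 replicates 1 and 3 (adjusted p = 0.0121). Npas2, the alternative partner of BMAL1, had a difference of 1.97 ± 0.79 that was not called (edgeR, adjusted p = 0.142). Clock itself had a difference of 0.16 ± 0.32 and Rora, an activator of Arntl, 0.10 ± 0.34, and neither was called.

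Per2, a repressor of the loop (chromosome 1, 91415982 to 91459324), had 47.2, 41.6, 47.5 and 28.8 CPM in day 1 ZT16 libraries, 23.9, 28.6, 20.7 and 24.3 CPM in day 1 ZT4 libraries, 210, 155 and 241 CPM in uninjured ZT16 libraries, and 9.37, 17.4 and 57.0 CPM in uninjured ZT4 libraries. At day 1 the 4 ZT16 values lay just above the 4 ZT4 values, and in uninjured muscle they lay far above. The time effect was 0.76 ± 0.38 at day 1 and 2.88 ± 0.45 in uninjured muscle (difference −2.12 ± 0.57, edgeR, adjusted p = 0.0326). Its call ended when day 1 ZT4 replicate 2 or 4, day 1 ZT16 replicate 4, uninjured ZT4 replicate 2, or uninjured ZT16 replicate 1 or 3 was left out, with adjusted p up to 0.0836.

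Cry1, another repressor of the loop (chromosome 10, 85131700 to 85185064), had 63.4, 48.4, 67.3 and 53.4 CPM in day 1 ZT16 libraries, 40.6, 42.9, 51.5 and 49.8 CPM in day 1 ZT4 libraries, 73.5, 54.1 and 72.8 CPM in uninjured ZT16 libraries, and 20, 7.67 and 29.5 CPM in uninjured ZT4 libraries. The uninjured ZT4 libraries were the low ones, and the day 1 groups overlapped. The difference was −1.49 ± 0.35 (edgeR, adjusted p = 0.0129). Per3 differed by −1.23 ± 0.36, and its call ended in 11 of the 14 fits that left out 1 library, with adjusted p up to 0.0922.

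Tef, a PAR bZIP factor that binds D-boxes (chromosome 15, 81802421 to 81826863), had 101, 120, 122 and 82.2 CPM in day 1 ZT16 libraries, 114, 101, 94.4 and 95.7 CPM in day 1 ZT4 libraries, 433, 448 and 445 CPM in uninjured ZT16 libraries, and 146, 213 and 252 CPM in uninjured ZT4 libraries. All day 1 libraries lay below all uninjured ones, the times overlapped at day 1, and the difference was −1.05 ± 0.20 (edgeR, adjusted p = 0.00306). Hlf, of the same family, differed by −2.73 ± 0.60, Bhlhe41, a repressor that binds E-boxes, by −1.38 ± 0.32, and Nr1d2, the receptor REV-ERB beta, by −0.89 ± 0.21. These calls held in all 14 fits that left out 1 library. Usp2, a deubiquitinase with a clock-driven transcript, differed by −2.72 ± 0.67, but not past the threshold without uninjured ZT4 replicate 2 or uninjured ZT16 replicate 3 (adjusted p up to 0.0631). Nfil3, a repressor that binds D-boxes, differed by −3.25 ± 0.76, with an adjusted p of 0.0504 in edgeR when uninjured ZT16 replicate 1 was left out. Without uninjured ZT16 replicates 1 and 3 the difference of Nfil3 was −1.2 (edgeR, adjusted p = 0.591), and it was not called in either voom fit or in the 14 libraries alone.

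Not every clock gene lost its effect. Nr1d1, the receptor REV-ERB alpha (chromosome 11, 98767932 to 98775333), had 59.5, 55.9, 68.4 and 54.7 CPM in day 1 ZT16 libraries, 83.9, 73.2, 98.7 and 80.1 CPM in day 1 ZT4 libraries, 165, 234 and 154 CPM in uninjured ZT16 libraries, and 340, 402 and 324 CPM in uninjured ZT4 libraries. ZT16 lay below ZT4 without overlap in both states. The time effect was −0.49 ± 0.16 at day 1 and −0.95 ± 0.18 in uninjured muscle, with a difference of 0.45 ± 0.24 that was not called (edgeR, adjusted p = 0.281). The uninjured effect of Nr1d1 was not called without uninjured ZT16 replicates 1 and 3.

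Dbp, a D-box activator and a common readout of the clock (chromosome 7, 45705088 to 45710203), met the rule for a new effect. It had 42.5, 40.9, 54.3 and 37.4 CPM in day 1 ZT16 libraries, 73.1, 46.6, 65.6 and 71.4 CPM in day 1 ZT4 libraries, 276, 315 and 199 CPM in uninjured ZT16 libraries, and 122, 229 and 225 CPM in uninjured ZT4 libraries. At day 1 the ZT16 values were mostly the lower ones and in uninjured muscle mostly the higher ones, with overlap in both. The difference was −1.01 ± 0.29 (edgeR, adjusted p = 0.0364) and was lost in 9 of the 14 fits that left out 1 library (adjusted p up to 0.0851). Per1 at −1.39 ± 0.69, Cry2 at −1.16 ± 0.38, Bhlhe40 at −2.65 ± 0.83 and Ciart at −0.84 ± 0.52 were not called in the main fit. Cry2 was called under DESeq2, in both voom fits and with the replicate number as a block. It was also called without day 1 ZT16 replicate 1 or uninjured ZT4 replicate 3. Per1 was called under voom with sample weights and without uninjured ZT4 replicate 3. Bhlhe40 was called under DESeq2 and without uninjured ZT16 replicate 2. With no filter on low counts all but Ciart were called. All other fits of these genes gave no call.

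**Figure D3:**
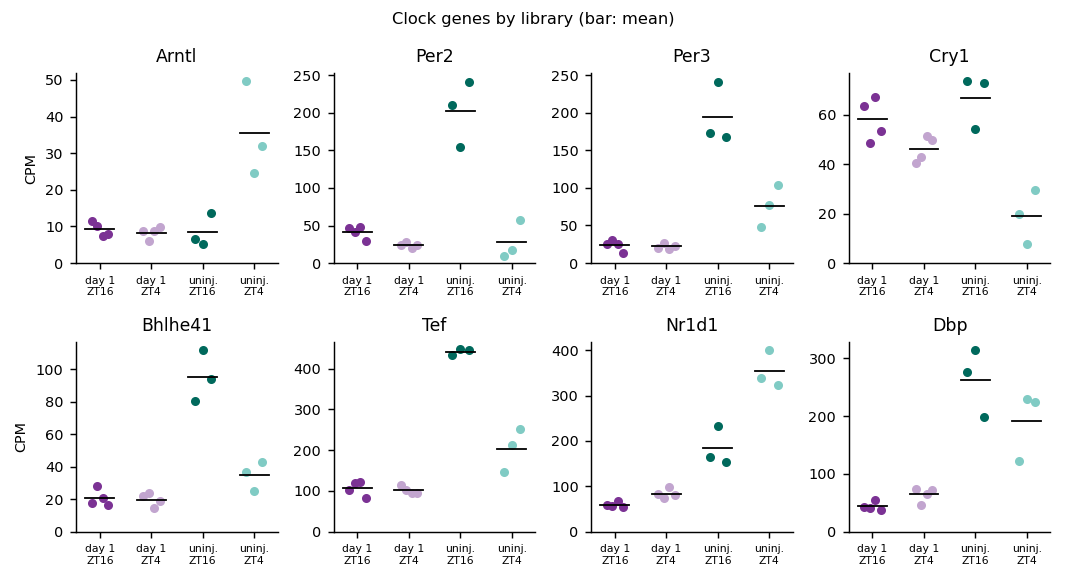
CPM of 8 clock genes by library on linear axes from 0, with day 1 groups left of uninjured groups and bars at group means. Arntl, Per3, Bhlhe41 and Tef lie at similar levels at both times of day 1 and at separate levels in uninjured libraries; Nr1d1 is lower at ZT16 in both states.

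Promoter sequence of some clock and sterol genes with a called difference is shown with its E-box or D-box. Whether the clock acts on the sterol genes was not tested. Fdps, Sqle and Per2 were among the genes without a promoter window. RefSeq windows of 250 bases before to 50 bases after the start (GRCm38.p6) were searched on both strands for the E-box CACGTG and the D-box TTATGTAA or TTATGCAA. The E-box stood in 6 of 14 windows of 12 clock repressors and outputs, 42.9%, in 0 of 12 windows of 8 clock activators, in 4 of 19 windows of 16 sterol genes, 21.1%, and in 7.15% of all 32851 windows. These counts cover the whole lists, whether or not a gene's difference was called. The clock windows with an E-box include those of Per1 and Ciart, whose differences were not called in the main fit. The D-box stood in 2 of the 14 clock windows, those of Per1 and Per3, and in 1.66% of all windows. Other motifs were searched too. The ROR element TAGGTCA stood in 2 of 12 windows of clock activators, 0 of 14 of clock repressors, 2 of 19 of sterol genes and 2.61% of all windows. The CRE TGACGTCA stood in 1 of the 14 clock repressor windows, in 0 of the activator and sterol windows and in 1.79% of all. CACCCCAC, part of the sterol element, stood in 1 window of each of the 3 lists and in 2.87% of all. Stretches upstream of the start and clear of annotated exons are printed 5′ to 3′ on the strand of the gene, with the E-box or, for Per3, the D-box in capitals. They lie at chr10:85185069-85185154 (Cry1, minus strand), chr6:145865559-145865613 (Bhlhe41, minus), chr15:81811236-81811321 (Tef, plus, start inside the gene), chr4:151044823-151044910 (Per3, minus), chr5:28071271-28071356 (Insig1, plus), chr1:169969303-169969388 (Hsd17b7, minus) and chr9:42264353-42264438 (Sc5d, minus).
Cry1: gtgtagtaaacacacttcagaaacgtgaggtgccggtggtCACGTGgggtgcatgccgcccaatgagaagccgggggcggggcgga
Bhlhe41: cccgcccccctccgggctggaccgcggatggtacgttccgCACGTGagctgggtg
Tef: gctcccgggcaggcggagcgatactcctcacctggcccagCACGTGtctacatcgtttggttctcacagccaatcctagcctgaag
Per3: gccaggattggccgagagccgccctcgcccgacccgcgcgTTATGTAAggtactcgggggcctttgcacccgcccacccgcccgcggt
Insig1: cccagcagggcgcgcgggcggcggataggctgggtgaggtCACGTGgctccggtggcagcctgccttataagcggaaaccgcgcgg
Hsd17b7: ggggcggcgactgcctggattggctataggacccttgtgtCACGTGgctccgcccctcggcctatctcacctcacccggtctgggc
Sc5d: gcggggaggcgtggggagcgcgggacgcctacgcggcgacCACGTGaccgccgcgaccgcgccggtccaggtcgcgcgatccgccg
The motif begins 60 bases before the start in Cry1, 153 in Bhlhe41, 138 in Tef, 205 in Per3, 101 in Insig1, 143 in Hsd17b7 and 98 in Sc5d. Insig1, which retains SREBP2 in the endoplasmic reticulum, differed by 1.68 ± 0.29, and the synthesis genes Hsd17b7 by 1.26 ± 0.33 and Sc5d by 1.34 ± 0.30. The call of Hsd17b7 ended without uninjured ZT4 replicate 3 (edgeR, adjusted p = 0.0518), and that of Sc5d without uninjured ZT16 replicates 1 and 3. Insig1, Hsd17b7 and Sc5d, whose windows hold an E-box, fall outside the rule for named genes and were chosen after their values were seen. A match describes these letters only and is not a measured binding site.

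Other genes had differences that did not rest on the libraries that stood apart. Dbi, which encodes the acyl-CoA binding protein (chromosome 1, 120113280 to 120121078), had 125, 123, 132 and 122 CPM in day 1 ZT16 libraries, 146, 153, 136 and 126 CPM in day 1 ZT4 libraries, 52.3, 48.8 and 42.6 CPM in uninjured ZT16 libraries, and 170, 134 and 141 CPM in uninjured ZT4 libraries. The 3 uninjured ZT16 libraries were low, and the day 1 groups overlapped. Its difference was 1.47 ± 0.15 (edgeR, adjusted p = 7.94e-06), and 1.46 without uninjured ZT16 replicates 1 and 3.

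Trip10, an adaptor between CDC42 and the actin cytoskeleton (chromosome 17, 57249455 to 57263665), had 135, 119, 150 and 135 CPM in day 1 ZT16 libraries, 112, 118, 125 and 130 CPM in day 1 ZT4 libraries, 354, 340 and 363 CPM in uninjured ZT16 libraries, and 109, 121 and 122 CPM in uninjured ZT4 libraries. Here the uninjured ZT16 libraries were the high ones and the other 3 groups overlapped, with a difference of −1.44 ± 0.16 (edgeR, adjusted p = 3.35e-05). Iqsec3, an exchange factor for ARF GTPases, differed by 1.88 ± 0.22, Slc19a2, a thiamine transporter, by −2.02 ± 0.25, and Slc6a6, the taurine transporter, by −1.24 ± 0.17. Klf13, a Krüppel-like factor, had a smaller effect of the same sign at day 1: 0.47 ± 0.17 at day 1 and 2.14 ± 0.19 in uninjured muscle (difference −1.67 ± 0.25). These 6 genes were called in every fit run.

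Actin and transgelin genes also had called differences. Actb, cytoplasmic actin, differed by 0.98 ± 0.18, Tagln, transgelin, by 1.49 ± 0.24, and Acta2, smooth muscle actin, by 1.2 ± 0.28, each called lower at ZT16 in uninjured muscle. Tagln and Acta2 are also markers of mural cells, a list of which 2 of 11 genes were called, both positive. The summed mural list lay at 1410 to 1529 CPM in day 1 ZT16 libraries, 1507 to 1606 CPM in day 1 ZT4 libraries, 1445 to 1862 CPM in uninjured ZT16 libraries and 2125 to 2337 CPM in uninjured ZT4 libraries, and its part in the result was not tested. Ifit1, an interferon-induced gene, differed by −2.74 ± 0.59, at 5.43 ± 2.31 CPM in day 1 ZT16 libraries, 7.75 ± 3.16 CPM in day 1 ZT4 libraries (SD, n = 4 each), 29.1 ± 12.8 CPM in uninjured ZT16 libraries and 6.23 ± 3.42 CPM in uninjured ZT4 libraries (SD, n = 3 each). Of 21 interferon response genes, 2 were called, both negative, near the 7.46% of all tested genes called in either direction. Acta2 and Ifit1 were called without uninjured ZT16 replicates 1 and 3, but not when the day 3 libraries were left out as well (edgeR, adjusted p = 0.0636 and 0.0944).

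Immediate early genes, which respond within minutes to stimulation or stress, had the most negative differences of any list. Of 26 tested genes, 24 had a called negative difference and 0 a positive one, and the list's median was −4.28. The median time effect was −0.41 at day 1 and 4.04 in uninjured muscle. These calls moved with uninjured ZT16 replicates 1 and 3: without them 0 of 26 were called in edgeR and the median difference was −0.82. Socs3, a feedback inhibitor of cytokine signalling, had 880, 628, 689 and 125 CPM in day 1 ZT16 libraries, 860, 727, 712 and 726 CPM in day 1 ZT4 libraries, 2017, 91.4 and 1972 CPM in uninjured ZT16 libraries, and 45.3, 39.8 and 26.3 CPM in uninjured ZT4 libraries. Uninjured ZT16 replicate 2 lay close above the ZT4 libraries, and the other 2 lay far above. The difference was −5.57 ± 1.09 with all libraries and −1.65 without the 2 (edgeR, adjusted p = 0.00699 and 0.476). Egr2 differed by −6.42 ± 1.29, Csrnp1 by −6.17 ± 1.22, Klf2 by −4.90 ± 0.87 and Klf4 by −4.77 ± 0.93, all transcription factors of the early response, and none of them was called without the 2 libraries.

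Glucocorticoid targets gave 8 called negative differences and 1 positive among 20 tested genes. The list's median was −1.44, or −1.54 with a gene without counts in 1 group set at the floor, and 2 genes, Fkbp5 and Cebpb, were called without uninjured ZT16 replicates 1 and 3. Fkbp5, a chaperone of the glucocorticoid receptor that the receptor induces, had 132, 157, 229 and 160 CPM in day 1 ZT16 libraries, 134, 138, 111 and 139 CPM in day 1 ZT4 libraries, 192, 339 and 127 CPM in uninjured ZT16 libraries, and 33.2, 30.8 and 73.9 CPM in uninjured ZT4 libraries. In uninjured muscle all ZT16 values, with replicate 2 the highest, lay above all ZT4 values, and at day 1 the groups overlapped. Its difference was −1.89 ± 0.42, and −2.49 without the 2 libraries (edgeR, adjusted p = 0.0121 and 0.00601). It was not called in the 14 libraries alone, and neither Fkbp5 nor Cebpb was called without the 2 libraries when the day 3 libraries were also left out. Cebpb, a bZIP factor, differed by −4.59 ± 0.78 and Errfi1, an inhibitor of the EGF receptor, by −2.65 ± 0.57. Angptl4, a lipase inhibitor that PPARs also induce, was the positive one at 3.47 ± 0.76, not called without the 2 libraries.

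Stress and oxygen genes were mixed. Of 21 genes of the unfolded protein and heat shock response, 6 had a called negative and 2 a called positive difference, and 0 of them without uninjured ZT16 replicates 1 and 3, where the list's median was 0.22 against −0.67 with them. Dnajb1 and Hsph1, cytosolic chaperones, differed by −3.47 ± 0.72 and −1.66 ± 0.40, and Dnajb9 and Ddit3, of the endoplasmic reticulum response, by −1.33 ± 0.28 and −1.62 ± 0.38. Of 17 hypoxia genes, 3 were called negative. Vegfa, the angiogenic growth factor, met the rule for a reversed effect, at −0.44 ± 0.17 at day 1 and 1.2 ± 0.20 in uninjured muscle, and Slc2a3, a glucose transporter, differed by −1.94 ± 0.35. Of 17 amino acid response genes driven by ATF4, 4 were called negative, among them Slc3a2, a subunit of amino acid exchangers, at −0.94 ± 0.16, again reversed by the rule. None of Vegfa, Slc2a3 and Slc3a2 was called without the 2 libraries.

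Genes of the ribosome and of mitochondrial respiration were lower at ZT16 in uninjured muscle, and none passed the adjusted test at day 1. Of 27 cytosolic ribosomal protein genes, 22 had a called positive difference, 27 were called lower at ZT16 in uninjured muscle, and the median difference was 0.78. Of 31 genes of oxidative phosphorylation, 18 had a called positive difference and 30 were called lower at ZT16 in uninjured muscle, with a median difference of 0.57. Without uninjured ZT16 replicates 1 and 3, 0 genes of either list were called in edgeR, while every difference stayed positive and the medians were 0.62 and 0.38. Rpl19, of the large ribosomal subunit, had 545, 510, 606 and 690 CPM in day 1 ZT16 libraries, 597, 607, 580 and 617 CPM in day 1 ZT4 libraries, 279, 310 and 282 CPM in uninjured ZT16 libraries, and 415, 583 and 552 CPM in uninjured ZT4 libraries. The uninjured ZT16 libraries lay below all others, replicate 2 included, with a difference of 0.80 ± 0.16 (edgeR, adjusted p = 0.0044). Rps15 differed by 0.98 ± 0.19, and the respiratory subunits Cox6b1 by 0.77 ± 0.17, Cox8a by 0.81 ± 0.16 and Atp5e by 0.84 ± 0.16. Ribosomal protein genes have near-identical pseudogenes, between which the estimated counts may have been split.

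The ribosome and respiration lists were lowest where the early response genes were highest: uninjured ZT16 replicates 1 and 3 had 11640 and 11900 summed CPM of ribosomal proteins and replicate 2 had 13530. The part of these libraries was not tested beyond leaving them out. The 13 protein genes of the mitochondrial genome had a median difference of 0.81, all positive and none called in edgeR. Their sums were 15850, 16810 and 11420 CPM in uninjured ZT16 libraries and 12940, 22580 and 27320 CPM in uninjured ZT4 libraries. Uninjured ZT4 replicate 1 thus lay within the uninjured ZT16 range, and replicates 2 and 3 lay above it. Among 14 glycolysis genes, 2 were called positive and 1 negative. Eno1 and Gapdh, both glycolytic enzymes, differed by 0.59 ± 0.12 and 0.66 ± 0.16, and neither was called without the 2 libraries. Of 24 proteasome genes 1 was called positive, of 21 ribosome biogenesis genes 0, of 14 NRF2 antioxidant genes 1 positive, and of 20 genes of PPAR and fatty acid handling 1 positive.

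**Figure D4:**
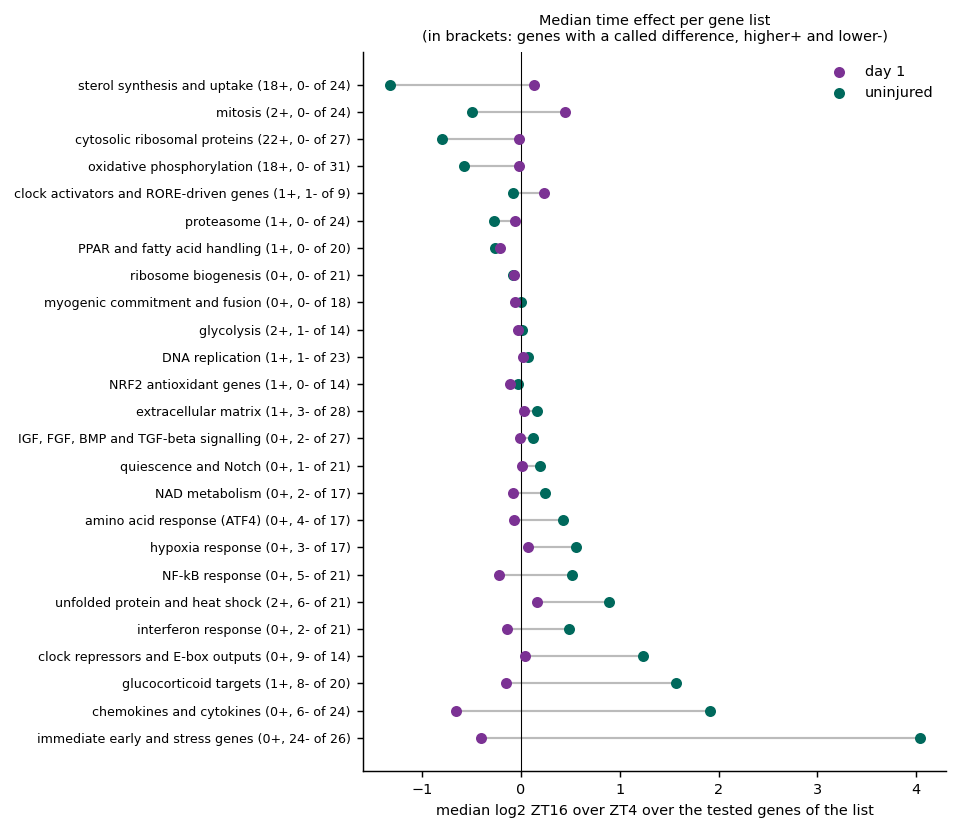
For each of 25 gene lists, the median log2 change at ZT16 over ZT4 over its tested genes at day 1 (purple) and in uninjured libraries (green), with the number of called differences in brackets; medians are of fitted values, with no floor for genes without counts. Day 1 medians stay between −0.66 for chemokines and 0.44 for mitosis, and uninjured medians reach 4.04 for immediate early genes and −1.33 for sterol genes.

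Some inflammatory genes had a called negative difference. Of 24 tested chemokine and cytokine genes, 6 had a called negative difference, against 3.53% of all tested genes. By sign, 20 of the 24 were lower at ZT16 at day 1, against 19 higher at ZT16 in uninjured muscle. The list's median difference was −2.31, or −1.61 with genes without counts in a group at the floor, and 0 genes were called without uninjured ZT16 replicates 1 and 3. Without those libraries 10 of the 24 were higher at ZT16 by sign in uninjured muscle, with a median of 0.00 against 1.91 with them, and the median difference was −1.06. Ccl2, which attracts monocytes, had 316, 269, 172 and 202 CPM in day 1 ZT16 libraries, 346, 358, 515 and 334 CPM in day 1 ZT4 libraries, 22.1, 3.57 and 7.95 CPM in uninjured ZT16 libraries, and 1.02, 2.10 and 3.20 CPM in uninjured ZT4 libraries. ZT16 lay below ZT4 without overlap at day 1 and above it without overlap in uninjured muscle. The difference of −3.16 ± 0.87 (edgeR, adjusted p = 0.0372) was lost in 8 of the 14 fits that left out 1 library, and the day 1 effect of −0.69 ± 0.42 was not called.

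Cxcl1, which attracts neutrophils, differed by −4.14 ± 1.02, and its 4 day 1 ZT16 values (69.8 to 279 CPM) lay below its day 1 ZT4 values (321 to 404 CPM). Csf1, the macrophage growth factor, differed by −0.96 ± 0.23. Both calls ended without uninjured ZT16 replicate 1 (adjusted p 0.0765 and 0.0541 in edgeR). Of 21 NF-kB response genes 5 were called negative, among them Nfkbiz, a nuclear cofactor, at −5.15 ± 1.17 and Tnfaip3, a feedback inhibitor, at −3.71 ± 0.92, and neither was called without uninjured ZT16 replicates 1 and 3. The call of Tnfaip3 also ended without uninjured ZT4 replicate 2 or uninjured ZT16 replicate 1 (adjusted p up to 0.0838).

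Markers of leukocytes moved with these genes. All 19 macrophage and monocyte markers were lower at ZT16 at day 1 by sign and 18 were higher by sign in uninjured muscle, with 1 called difference and a median of −1.95, or −1.67 at the floor. Without uninjured ZT16 replicates 1 and 3, 11 of the 19 were higher by sign in uninjured muscle (median 0.20, against 1.64 with them), the median difference was −0.82 and 0 were called in edgeR. Of the 19 markers, 0 were at 0 in each day 1 library, and 2 to 11 were at 0 in each uninjured library. Cd68, a lysosomal protein of macrophages, had 140, 99.5, 89.0 and 91.3 CPM in day 1 ZT16 libraries, 121, 150, 217 and 136 CPM in day 1 ZT4 libraries, 9.31, 3.57 and 5.96 CPM in uninjured ZT16 libraries, and 1.13, 0.866 and 0.801 CPM in uninjured ZT4 libraries. The times overlapped at day 1 and not in uninjured muscle, and the difference was −3.27 ± 0.64 (edgeR, adjusted p = 0.00574, and 0.243 without uninjured ZT16 replicates 1 and 3). The part of the leukocyte markers in the inflammatory results was not tested.

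Neutrophil markers summed to 31.5 to 90.4 CPM in day 1 ZT16 libraries, 88.0 to 322 CPM in day 1 ZT4 libraries, and at most 3.71 CPM in uninjured libraries. Of 6 tested neutrophil genes 0 were called in edgeR, and their median difference was 1.24 as fitted and −1.38 at the floor, opposite in sign. Mast cell markers, 7 genes, had a median of −1.92 with 0 called, and summed to 40.6 to 110 CPM in day 1 ZT16 libraries against 176 to 256 CPM in day 1 ZT4 libraries, with no overlap. Lymphocyte markers, of which 1 of 11 was tested, summed to at most 5.69 CPM in any library of the 4 groups. No called difference was found among 11 endothelial, 14 fibro-adipogenic, 6 Schwann and glial, 6 tenocyte and 4 erythroid markers, with medians of −0.56, −0.63, 0.25, 0.46 and −0.80.

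Several of the 51 genes of the reversed class also had a called difference without uninjured ZT16 replicates 1 and 3. Pilra, an inhibitory receptor of myeloid cells (chromosome 5, 137821952 to 137836281), had 21.1, 20.9, 17.6 and 13.6 CPM in day 1 ZT16 libraries, 25.5, 26, 48.7 and 29.9 CPM in day 1 ZT4 libraries, 5.30, 5.28 and 2.70 CPM in uninjured ZT16 libraries, and 1.13, 1.24 and 0.801 CPM in uninjured ZT4 libraries. ZT16 lay below ZT4 at day 1 and above it in uninjured muscle, with no overlap in either state. The difference was −2.86 ± 0.46, and −3.10 without the 2 libraries (edgeR, adjusted p = 0.000813 and 0.00445), but Pilra was not called in either voom fit. Rgcc, a regulator of the cell cycle, had the same pattern at −3.25 ± 0.46, and its levels were 17.9 to 25.1 CPM in day 1 ZT16 libraries, 28.6 to 61.3 CPM in day 1 ZT4 libraries, 8 to 17.6 CPM in uninjured ZT16 libraries and 0.801 to 2.82 CPM in uninjured ZT4 libraries. For both genes day 1 ZT4 replicate 3, which also had the highest macrophage sum, was the highest library.

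Chd7, a chromatin remodeller (chromosome 4, 8690406 to 8867659), had 93.0, 82.5, 72.7 and 82.7 CPM in day 1 ZT16 libraries, 105, 103, 116 and 115 CPM in day 1 ZT4 libraries, 213, 232 and 247 CPM in uninjured ZT16 libraries, and 181, 191 and 176 CPM in uninjured ZT4 libraries. The times did not overlap in either state and stood in opposite order. Its time effect was −0.41 ± 0.09 at day 1 and 0.34 ± 0.10 in uninjured muscle (difference −0.74 ± 0.13, edgeR, adjusted p = 0.00235). Ociad2, a mitochondrial and endosomal membrane protein, went the other way, at 0.68 ± 0.17 at day 1 and −0.82 ± 0.21 in uninjured muscle (difference 1.5 ± 0.27). Ddah2, of nitric oxide metabolism, differed by 0.74 ± 0.14, Ptdss2, phosphatidylserine synthase, by 1.02 ± 0.18, and Rhod, a small GTPase, by 2.35 ± 0.39. The calls of these 5 genes held in all 14 fits that left out 1 library and without uninjured ZT16 replicates 1 and 3, but not when the day 3 libraries were left out as well. Ociad2 and Rhod were also not called in the voom fit with weights per group.

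Few effects were new at day 1. Of the 24 genes in that class, 12 were higher and 12 lower at ZT16 at day 1, with a median absolute log2 change of 0.76 at day 1 and 0.45 in uninjured muscle, and 0 of them kept the class without uninjured ZT16 replicates 1 and 3. The class held 12 genes without uninjured ZT16 replicate 1, 13 without uninjured ZT16 replicate 3 and 14 without uninjured ZT4 replicate 2. Mmp19, a matrix metalloproteinase (chromosome 10, 128790910 to 128800824), had 29.4, 27.9, 21.8 and 20.9 CPM in day 1 ZT16 libraries, 32.2, 48.4, 50.2 and 46.3 CPM in day 1 ZT4 libraries, 15.3, 14.7 and 19.6 CPM in uninjured ZT16 libraries, and 15.8, 12 and 10.3 CPM in uninjured ZT4 libraries. ZT16 lay below ZT4 without overlap at day 1, and the uninjured groups overlapped. The time effect was −0.82 ± 0.17 at day 1 and 0.38 ± 0.21 in uninjured muscle (difference −1.2 ± 0.27, edgeR, adjusted p = 0.0105, and 0.177 without the 2 libraries).

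Ostf1, a signalling adaptor first described in osteoclasts, differed by −0.94 ± 0.21, with calls in all 14 fits that left out 1 library. Fam83d, a mitotic spindle protein, differed by 1.66 ± 0.43, with 8.80, 16.2, 17.3 and 14.4 CPM in day 1 ZT16 libraries and 6, 6.15, 9.95 and 3.72 CPM in day 1 ZT4 libraries. All but 1 of its ZT16 values lay above its ZT4 values, and its call ended without uninjured ZT4 replicate 1 (adjusted p = 0.07 in edgeR). Tnnc2, troponin C of fast fibers, differed by −1.77 ± 0.47, Rab3il1, a Rab exchange factor, by −1.04 ± 0.29, and Nisch, nischarin, by −0.71 ± 0.19, and each lost its call in 4 or 5 of the 14 fits that left out 1 library. Tnnc2 is 1 of 2 called genes among 18 myofiber markers, both negative, and 17 of the 18 were lower at ZT16 at day 1 by sign. The summed myofiber markers lay at 206 to 644 CPM in day 1 ZT16 libraries, 517 to 1125 CPM in day 1 ZT4 libraries, 1605 to 2076 CPM in uninjured ZT16 libraries and 866 to 1462 CPM in uninjured ZT4 libraries, and their part in the Tnnc2 result was not tested.

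Kept effects were modest at day 1. The 105 kept genes had a median absolute log2 change of 0.47 at day 1 and 0.82 in uninjured muscle, and 71 were higher and 34 lower at ZT16. The class held 217 genes without day 1 ZT16 replicate 4 and 44 without uninjured ZT16 replicates 1 and 3. Of the 2663 genes with a called uninjured effect, 4.39% had the same sign and an unadjusted p under 0.05 at day 1, against 3.24% of the 12421 other genes. Among the 408 genes called in uninjured muscle both with and without uninjured ZT16 replicates 1 and 3, the share was 8.58%. By sign alone, 57.1% of the genes higher at ZT16 in uninjured muscle were higher at day 1, and 62.7% of the lower ones were lower, against 50.9% with the same sign among the genes not called. The shares were lower for larger uninjured effects as fitted with all libraries. Of the higher genes, 49.2% of those of at least 2-fold and 38.2% of those of at least 4-fold had the same sign at day 1. For the lower ones the shares were 55.4% and 51.2%. Among genes called in uninjured muscle also without uninjured ZT16 replicates 1 and 3, 65.4% of the higher and 67.5% of the lower ones had the same sign. The part of these 2 libraries in the trend with size was not tested. The 2 time effects share no libraries, and these shares are given as a description.

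Adamts10, a secreted protease (chromosome 17, 33524204 to 33553782), had 62.5, 71.3, 58.5 and 36.6 CPM in day 1 ZT16 libraries, 40.6, 42.1, 28.9 and 29.5 CPM in day 1 ZT4 libraries, 686, 726 and 801 CPM in uninjured ZT16 libraries, and 346, 356 and 352 CPM in uninjured ZT4 libraries. ZT16 was higher in all uninjured libraries and in 3 of 4 day 1 libraries, with day 1 ZT16 replicate 4 the exception. The time effect was 0.70 ± 0.18 at day 1 and 1.07 ± 0.20 in uninjured muscle, a difference of −0.37 ± 0.27 (edgeR, adjusted p = 0.446). Slc43a3, a purine transporter, had effects of 0.72 ± 0.16 at day 1 and 1.03 ± 0.19 in uninjured muscle, and Cd200, a ligand that restrains myeloid cells, 0.70 ± 0.17 and 0.86 ± 0.20. For both, day 1 ZT16 replicate 4 was the lowest of its group.

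Further kept genes higher at ZT16 were Ghr, the growth hormone receptor, at 0.47 ± 0.14 at day 1 and 0.90 ± 0.15 in uninjured muscle, Adh1, an alcohol dehydrogenase, at 0.82 ± 0.25 and 0.80 ± 0.27, and Ip6k2, an inositol phosphate kinase, at 0.62 ± 0.17 and 0.57 ± 0.19. Kept genes lower at ZT16 included Csf2ra, a subunit of the GM-CSF receptor. It had 31.4, 25.6, 20.3 and 19.2 CPM in day 1 ZT16 libraries, 36.6, 36.1, 47.1 and 36.5 CPM in day 1 ZT4 libraries, 5.44, 8.28 and 6.67 CPM in uninjured ZT16 libraries, and 15.1, 13.1 and 13.5 CPM in uninjured ZT4 libraries. The times did not overlap in either state, and the effects were −0.70 ± 0.18 at day 1 and −1.03 ± 0.23 in uninjured muscle. Mpzl1, a cell surface glycoprotein, had −0.41 ± 0.11 and −0.57 ± 0.13, and Mvp, the major vault protein, −0.32 ± 0.09 and −0.37 ± 0.11. Ddit4, an inhibitor of mTORC1, was kept by the rule at 0.90 ± 0.40 at day 1 and 2.53 ± 0.37 in uninjured muscle, with a difference of −1.63 ± 0.54 that was not called (edgeR, adjusted p = 0.069). No day 1 effect of these genes passed the adjusted test.

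**Figure D5:**
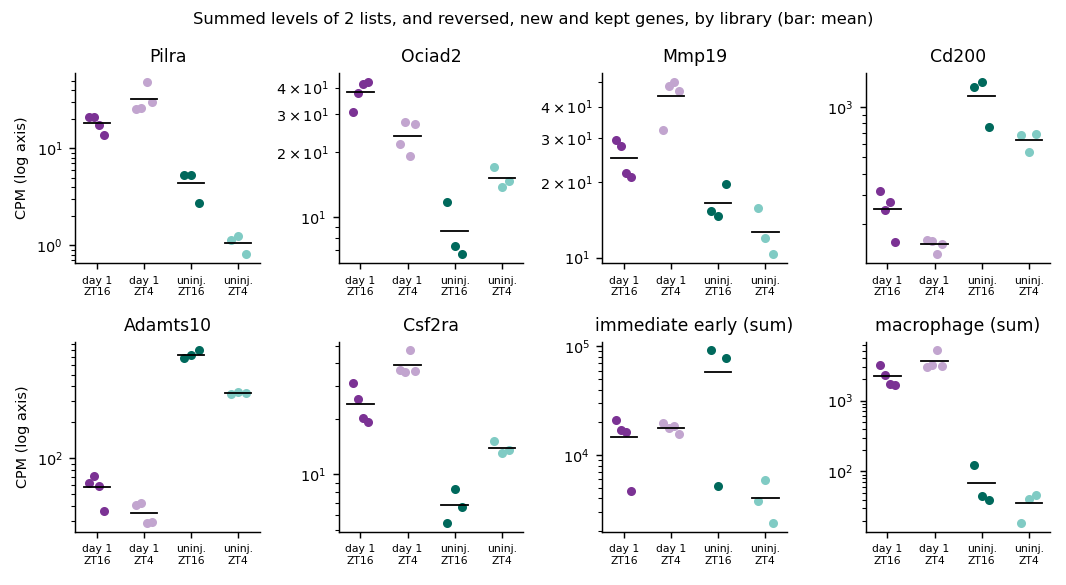
CPM by library on log axes for 2 reversed genes (Pilra, Ociad2), 1 new gene (Mmp19), 3 kept genes (Cd200, Adamts10, Csf2ra) and the summed CPM of immediate early genes and of macrophage markers, with day 1 groups left of uninjured groups and bars at group means. Uninjured ZT16 replicate 2 and day 1 ZT16 replicate 4 stand apart in the immediate early sum, and the order of the times is opposite in the 2 states for Pilra and Ociad2.

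Mitosis genes were higher at ZT16 at day 1 by sign, without passing the test singly. All 24 tested mitosis genes were higher at ZT16 at day 1 by sign, with a median of 0.44, and 21 were lower by sign in uninjured muscle, with a median of −0.50. Summed over the list, the times overlapped in both states. Day 1 libraries, in order of replicate, had 1846, 2682, 2852 and 2702 CPM at ZT16 and 1759, 2171, 2227 and 1685 CPM at ZT4. Uninjured replicates 1, 2 and 3 had 486.9, 312.5 and 360.1 CPM at ZT16 and 736.6, 415.8 and 294.0 CPM at ZT4. The list's median difference was 0.96, and 1.7 without uninjured ZT16 replicates 1 and 3. With all libraries 2 genes were called, both positive: Cenpe, a kinetochore motor, at 1.25 ± 0.35, and Kif23, of the cytokinetic bridge, at 2.07 ± 0.62. Without uninjured ZT16 replicates 1 and 3 the difference of Kif23 was 5.52, with 0.143 CPM in the library that remained. The calls of Cenpe and Kif23 ended in 7 and 10 of the 14 fits that left out 1 library (adjusted p up to 0.182 and 0.124). Plk1, the mitotic kinase, had 39.9, 68.1, 74.1 and 81.3 CPM in day 1 ZT16 libraries, 33.6, 48.6, 51.6 and 28.9 CPM in day 1 ZT4 libraries, 6.88, 2.57 and 3.26 CPM in uninjured ZT16 libraries, and 13, 4.21 and 4.65 CPM in uninjured ZT4 libraries. The times overlapped in both states, and its difference of 1.51 ± 0.52 was not called, nor was that of Cdc20, the activator of the anaphase complex, at 1.63 ± 0.52. Of 23 DNA replication genes, 1 was called positive and 1 negative, with a median of −0.03. That count is near the 7.46% of all tested genes called.

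Called differences among stem cell and myogenic genes were near the share of all tested genes, which was 7.46%. Of 18 genes of myogenic commitment and fusion 0 were called in edgeR, with a median difference of −0.01. Of 21 quiescence and Notch genes 1 was called, negative. Lists this short cannot set these counts apart from that share. Pax7 differed by 0.26 ± 0.21, Myf5 by −0.42 ± 0.34, Myod1 by 0.07 ± 0.17 and Myog, the factor of differentiation, by 1.51 ± 0.74, and none was called. Nampt, which limits the rate of NAD salvage, differed by −0.76 ± 0.20: it had 51.9 to 64.7 CPM in day 1 ZT16 libraries, 50.8 to 61.5 CPM in day 1 ZT4 libraries, 33.7 to 37.8 CPM in uninjured ZT16 libraries and 15.4 to 23.3 CPM in uninjured ZT4 libraries. The uninjured ZT4 libraries were the low ones, and the call ended without uninjured ZT4 replicate 3 (edgeR, adjusted p = 0.0567). Nnmt, which consumes nicotinamide, differed by −3.82 ± 0.77 and completed the 2 called genes among 17 of NAD metabolism, with 0 called without uninjured ZT16 replicates 1 and 3.

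Of 28 extracellular matrix genes, 1 had a called positive and 3 a called negative difference. Sparc, a matricellular protein, differed by 0.63 ± 0.14 and Nid1, nidogen of the basement membrane, by −1.2 ± 0.30, a call lost for Nid1 without uninjured ZT16 replicate 3 (edgeR, adjusted p = 0.0538). Of 27 genes of IGF, FGF, BMP and TGF-beta signalling, 2 were called, both negative. That is near the 7.46% of all tested genes called in either direction. No gene of these 2 lists was called without uninjured ZT16 replicates 1 and 3.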

How the data were processed

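RNA was measured in 22 libraries, 14 of which form the 4 groups compared. The authors deposited RSEM tables of expected counts per transcript, with an effective length per transcript. The submitters' processing notes name Trimmomatic 0.33, STAR 2.5.2, RSEM 1.3.3, DESeq2 and the build mm10. Expected counts of 103732 transcripts were summed per gene (43430 genes, 42546 matched to the annotation of GRCm38) and rounded to whole numbers. Totals of 5965957 to 8108753 limit the precision of low genes.

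edgeR 4.0.16 in R 4.3.3 (quasi-likelihood test, TMM scaling, filterByExpr with a minimum count of 10 and total of 15, 15084 genes tested and 28346 left out) fitted all 6 groups of the series, which share 1 estimate of the spread, with no covariate. Alternatives used limma 3.58.1 and DESeq2 1.42.0, and tables were made with pandas 2.3.3 and numpy 2.4.6 in Python 3.11.15. The fit was tested on simulated data. In the main fit, replicate numbers were not taken to pair the samples. No pair of libraries was a duplicate.

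The comparison, the 37 gene lists (25 of pathways, 11 of cell markers and 1 of the mitochondrial genome; 648 genes, 620 tested) and the rules were chosen with earlier results of these data known. Named genes were the 12 highest and 12 lowest differences with groups that do not overlap, up to 4 per list by p, both clock lists, up to 10 kept, new and reversed genes each by p, the 12 smallest p when uninjured ZT16 replicates 1 and 3 are left out, with the myogenic factors Myod1, Myf5 and Myog, Pax7, Nampt and Ccl2 added; not all are printed. A gene was treated as without counts in a group only if its rounded counts there were all absent. For such a gene, every group below 3 counts was set at 3. Some genes of the lists are counted but not reported here by name.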

Additional observations from a re-analysis of the deposited data

Results flagged for a closer look

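The time effect at day 1 differed from that in uninjured muscle, by the test of the difference itself (edgeR, adjusted p under 0.05), for 1125 genes. Of the genes named above, those with a positive log2 difference (day 1 minus uninjured) were Angptl4 at 3.47, Msmo1 at 2.89, Sqle at 2.65, Fdps at 2.62, Rhod at 2.35, Arntl at 2.19, Kif23 at 2.07, Lss at 1.98, Iqsec3 at 1.88, Insig1 at 1.68, Fam83d at 1.66, Ociad2 at 1.5, Tagln at 1.49, Dbi at 1.47, Sc5d at 1.34, Hsd17b7 at 1.26, Cenpe at 1.25, Acta2 at 1.2, Srebf2 at 1.18, Ptdss2 at 1.02, Actb at 0.98, Rps15 at 0.98, Atp5e at 0.84, Cox8a at 0.81, Rpl19 at 0.80, Cox6b1 at 0.77, Ddah2 at 0.74, Gapdh at 0.66, Sparc at 0.63 and Eno1 at 0.59.

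Those with a negative log2 difference were Egr2 at −6.42, Csrnp1 at −6.17, Socs3 at −5.57, Nfkbiz at −5.15, Klf2 at −4.90, Klf4 at −4.77, Cebpb at −4.59, Cxcl1 at −4.14, Nnmt at −3.82, Tnfaip3 at −3.71, Dnajb1 at −3.47, Cd68 at −3.27, Nfil3 at −3.25, Rgcc at −3.25, Ccl2 at −3.16, Pilra at −2.86, Ifit1 at −2.74, Hlf at −2.73, Usp2 at −2.72, Errfi1 at −2.65, Per2 at −2.12, Slc19a2 at −2.02, Slc2a3 at −1.94, Fkbp5 at −1.89, Tnnc2 at −1.77, Klf13 at −1.67, Hsph1 at −1.66, Vegfa at −1.63, Ddit3 at −1.62, Cry1 at −1.49, Trip10 at −1.44, Bhlhe41 at −1.38, Dnajb9 at −1.33, Slc6a6 at −1.24, Per3 at −1.23, Nid1 at −1.2, Mmp19 at −1.2, Tef at −1.05, Rab3il1 at −1.04, Dbp at −1.01, Csf1 at −0.96, Slc3a2 at −0.94, Ostf1 at −0.94, Nr1d2 at −0.89, Nampt at −0.76, Chd7 at −0.74 and Nisch at −0.71.

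Single libraries lay far from the other 3 of their group in 13 of the 202 day 1 groups of 4 examined, where chance gives about 1 in 20, and 8 of the 13 fell in day 1 ZT4 replicate 3. In that library Bhlhe40 at 396 CPM, Ccl2 at 515 CPM, Sparc at 745 CPM, Slc43a3 at 255 CPM and Csf2ra at 47.1 CPM were the highest of the group. Fkbp5 at 111 CPM, Myod1 at 1210 CPM and Hsd17b7 at 45.1 CPM were the lowest there. Socs3 at 860 CPM and Ddah2 at 62.6 CPM were highest in day 1 ZT4 replicate 1, and Cenpe at 36.0 CPM in day 1 ZT4 replicate 2. Dnajb9 at 55.6 CPM was highest in day 1 ZT16 replicate 2 and Atp5e at 142 CPM in day 1 ZT16 replicate 4.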

How the results depend on the processing

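The number of genes with a called difference in the time effect, 1125 as reported, became 737 under limma voom with sample weights, 293 with weights per group, 514 with the 14 libraries alone, 134 without uninjured ZT16 replicates 1 and 3, and 32 when these and the day 3 libraries were left out (12 libraries alone). They were 648 to 1596 when 1 library was left out. Of the 1125, 287 were also called with weights per group and 112 without the 2 replicates. The number of genes with a called uninjured time effect, 2663 as reported, became 1152 with weights per group, 467 without the 2 replicates and 125 in the 12 libraries, and 1768 to 2898 without 1 library. The number of genes with a called day 1 time effect, 0 as reported, became 27 under DESeq2, 46 under voom with sample weights, 29 with weights per group, 270 with no filter, 1 with effective length offsets, and 0 to 10 without 1 library. The genes with a lost time effect, 1010 as reported, were 634 under voom with sample weights, 259 with weights per group, 465 with the 14 libraries alone, 112 without the 2 replicates, 27 in the 12 libraries, and 573 to 1422 without 1 library. The genes with a kept time effect, 105 as reported, were 161 with no filter, 44 without the 2 replicates, 16 in the 12 libraries, and 73 to 217 without 1 library. The genes with a new time effect, 24 as reported, were 49 under DESeq2, 14 under voom with sample weights, 6 with weights per group, 92 with no filter, 6 with the 14 libraries alone, 1 without the 2 replicates, 0 in the 12 libraries, and 12 to 35 without 1 library.

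With the replicate number as a block, 859 differences were called, 775 of them shared, and 15 genes were new. Same-numbered libraries deviated together little (correlations of −0.064 to 0.105), as did libraries of different number (−0.111 to 0.128). Low correlations cannot tell whether samples were paired or processed together. Of 2550 values of 102 named genes under the alternatives, 2210 kept direction and side of the threshold, 285 fell short of it, 44 came past it and 11 changed sign, all 11 of differences that were not called. Clock was −0.16 to 0.49 over the fits without 1 library, lowest without uninjured ZT4 replicate 1. Rora was −0.01 with weights per group, −0.06 with effective length offsets, −0.13 without the 2 replicates, with or without day 3 libraries, and −0.11 to 0.33 over the fits without 1 library, with −0.11, −0.09 and −0.02 without uninjured ZT4 replicate 3, day 1 ZT16 replicate 3 and uninjured ZT16 replicate 3. Myod1 was −0.15 under voom with sample weights and −0.03 to 0.24 over the fits without 1 library, lowest without uninjured ZT4 replicate 1 or uninjured ZT16 replicate 2. The cause was not tested. The median difference over all genes lay between −0.01 (weights per group) and 0.07 (without uninjured ZT16 replicate 2) over all fits. It was 0.01 with DESeq2 size factors in edgeR and 0.03 with effective length offsets. Depth limits the genes of low count.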
